A study of Mus musculus with 9 samples.

Results

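The genes described here are 34 genes of sterol and fatty acid synthesis and its control, measured on arrays of laser-dissected lumbar motor neurons from mice with spinal muscular atrophy (SMA) and from wild-type mice. They were taken from a list of named genes: 18 sterol enzymes, the sterol carrier Stard4, 4 regulators of the SREBP pathway, 9 fatty acid enzymes and 2 sterol efflux pumps. Each gene was read by its brightest probe set among those that named it alone in the platform annotation. Of the 34 genes, 32 had such a probe set, out of 12393 named genes on the array. Acat2 and Insig1 were not analysed here. A probe set was tested if it lay in the brighter 50% of 22626 probe sets, and 31 of the genes passed. Acaca, the carboxylase that commits acetyl-CoA to fatty acids, did not pass, with signals of 8.7 to 16.3 on the 9 arrays.

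SMA is a loss of motor neurons that follows from too little of the SMN protein. The arrays came from 3 transgenic SMA mice transplanted with cells that the labels call NSC (neural stem cells, from knowledge of the study), 3 transgenic SMA mice given vehicle, and 3 wild-type mice given vehicle. All mice had surgery at postnatal day 1, were killed at 13 days and were perfused with fixative, and each array held the neurons of 1 animal. The SMA alleles, the strain and the origin of the transplanted cells are not named in those labels. Values are MAS5 signals, a linear brightness in arbitrary units that the authors scaled to the same trimmed mean on every array. Signals of different genes are brightnesses of different probe sets and were not set against each other.

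Cholesterol is built from acetyl-CoA through mevalonate, the isoprenoids and squalene to lanosterol, which a series of enzymes of the endoplasmic reticulum then trims to cholesterol. Most of these enzymes are transcribed under SREBP-2 when membrane sterol is low, and fatty acid enzymes largely under SREBP-1, while the nuclear receptor LXR turns on the pumps Abca1 and Abcg1 when sterol is plentiful. In the young spinal cord, oligodendrocytes make large amounts of cholesterol and fatty acids for myelin, and neurons and astrocytes also carry the pathway.

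Promoters of 4 genes are printed as examples: an early sterol enzyme, the sterol enzyme with the most NF-Y boxes, the fatty acid synthase and an efflux pump. The windows run from 250 bases before to 50 bases after the transcription start, 5′ to 3′ on the gene's strand, as RefSeq gives them for GRCm38.p6. Capitals mark NF-Y boxes (CCAAT, read as ATTGG on the other strand) and the 1 match to the looser sterol regulatory element (TCACNCCAC).
Hmgcs1, chr13:119690101-119690400, plus strand: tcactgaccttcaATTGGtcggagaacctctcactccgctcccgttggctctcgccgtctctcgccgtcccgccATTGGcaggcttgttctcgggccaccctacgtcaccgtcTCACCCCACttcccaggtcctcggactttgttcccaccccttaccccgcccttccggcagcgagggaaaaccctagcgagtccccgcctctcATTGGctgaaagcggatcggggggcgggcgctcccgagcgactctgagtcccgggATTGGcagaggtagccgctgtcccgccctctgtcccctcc
Mvk, chr5:114444019-114444318, plus strand: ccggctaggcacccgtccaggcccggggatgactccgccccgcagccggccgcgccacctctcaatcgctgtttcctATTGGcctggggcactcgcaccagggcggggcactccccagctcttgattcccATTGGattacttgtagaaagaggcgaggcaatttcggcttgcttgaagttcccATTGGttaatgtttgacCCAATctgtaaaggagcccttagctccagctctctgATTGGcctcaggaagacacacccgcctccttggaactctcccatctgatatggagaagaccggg
Fasn, chr11:120824498-120824797, minus strand: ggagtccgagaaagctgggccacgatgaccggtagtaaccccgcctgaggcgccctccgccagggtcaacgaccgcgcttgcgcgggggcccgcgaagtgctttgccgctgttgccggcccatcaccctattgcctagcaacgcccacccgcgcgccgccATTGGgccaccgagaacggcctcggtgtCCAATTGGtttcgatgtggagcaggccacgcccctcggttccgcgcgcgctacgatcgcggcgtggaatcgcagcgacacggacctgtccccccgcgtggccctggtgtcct
Abca1, chr4:53159846-53160145, minus strand: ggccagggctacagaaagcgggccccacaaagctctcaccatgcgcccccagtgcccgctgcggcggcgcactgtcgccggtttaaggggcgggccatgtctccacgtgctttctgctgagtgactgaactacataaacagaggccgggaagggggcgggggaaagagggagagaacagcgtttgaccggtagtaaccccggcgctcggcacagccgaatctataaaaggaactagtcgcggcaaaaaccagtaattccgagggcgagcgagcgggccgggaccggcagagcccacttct

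A promoter window was found for 26 of the 34 genes, some with several starts. An NF-Y box stood on either strand in 14 of the 15 sterol enzyme genes with a window (93.3%), in 3 of 6 fatty acid enzyme genes (50%), in 3 of 4 SREBP regulators (75%) and not in Abca1. Among all 27025 genes in the table the share was 41.1%. An Sp1 box (GGGCGG, either strand) stood in 93.3% of the sterol enzyme genes, in 33.3% of the fatty acid enzyme genes, in all 4 SREBP regulators (100%), in Abca1 and in 38.2% of all genes. The strict sterol regulatory element, which contains the looser form, was in 0 member windows and in 0.0913% of all 32851 windows. The looser form stood in Hmgcs1 alone among the members, with its first base at -137 from the start, and in 1.24% of all windows. Only the exact letters were searched (N is any base), so variant forms were not counted. A count of 0 thus does not show that an element is absent. These are matches of letters in a short window and do not show binding.

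The captures were also read against lists of cell type markers. Of 15 motor neuron markers, 13 had a probe set and 5 were bright enough to test. Of these 5, the neurofilament chains Nefl, Nefm and Nefh read 559.1 to 1458, 91.4 to 602.8 and 54.1 to 348.2 over the 9 arrays, Stmn2 of growing axons 196.7 to 818.9 and the motor neuron factor Isl2 26.4 to 119.8. The defining markers Slc18a3, Prph and Isl1 were too dim to test, at 2.1 to 41.7, 1.5 to 76.6 and 3.8 to 16.7. The 13 summed to 1405 to 3348 on transplanted SMA arrays, 1073 to 2241 on SMA arrays and 1575 to 1890.3 on wild-type arrays, and none was at 0. Oligodendrocyte markers were bright: the summed signal of the 22 with a probe set, of 28 listed, ran 40043 to 56876 on transplanted SMA arrays, 31090.2 to 53123 on SMA arrays and 40856 to 47248 on wild-type arrays, and none was at 0. Skeletal muscle markers summed to 135 to 201 on transplanted SMA arrays, 152 to 3059.5 on SMA arrays and 106 to 276 on wild-type arrays, with the high values on SMA 1 and SMA 2. Xist, which marks female tissue, read 733, 739.6 and 366.1 on transplanted SMA arrays, 600.7, 879.5 and 47.6 on SMA arrays and 32.9, 23.5 and 31.7 on wild-type arrays, so sex was uneven between groups. The Y-linked Eif2s3y read 0.4, 0.3 and 84.8 on transplanted SMA arrays, 0.5, 0.1 and 108.9 on SMA arrays and 49, 54.7 and 75.1 on wild-type arrays. Transplanted SMA 3 thus carried both Xist and Eif2s3y, while the labels give 1 animal per array. For both comparisons that use it, the sterol and fatty acid medians and some of the genes are also given without it. In such captures, fewer cells of a type and less RNA per cell cannot be told apart.

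The first comparison set SMA against wild type, both given vehicle. All 17 tested sterol enzymes read lower in SMA, as did 49% of all probe sets, with a median log2 difference of -0.58 (-0.82 to -0.23), beside a median of 0.01 over all 11313 probe sets. None passed the test across all probe sets: 0 of the 31 tested genes had a limma adjusted p under 0.05, where 0.0442% of all probe sets did, and the smallest adjusted p among them was 0.396, for Fdps. At an unadjusted p under 0.05, 13 of the 17 sterol enzymes were lower, against 3.32% of all probe sets, and the count was 6 without wild type 2 and 8 without wild type 1. For 12 of the 17, every SMA array lay below every wild-type array, against 6.06% of all probe sets. Log2 differences here and below are of log2(signal + 16), which understates the change of dim genes.

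**Figure D1:**
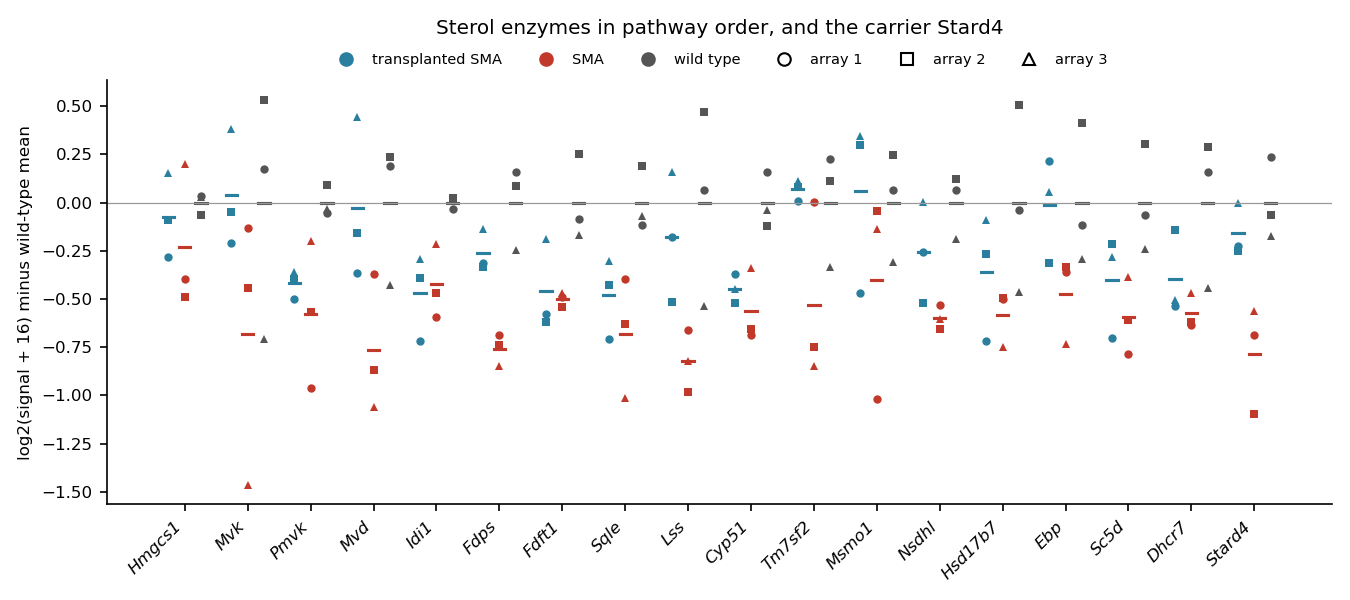
Each point is 1 array, as log2(signal + 16) minus the gene's wild-type mean (vertical axis), for the 17 tested sterol enzymes in pathway order and Stard4 (horizontal axis). Colours mark transplanted SMA, SMA and wild type, left to right within a gene, shapes mark the array number and short bars the group means; the SMA means lie below 0 for every gene shown, at -0.76 for Fdps and -0.23 for Hmgcs1.

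The early steps make mevalonate and the isoprenoid units. Hmgcs1, the cytosolic synthase that joins acetyl groups into HMG-CoA, read 5240, 5988.7 and 7105.8 on transplanted SMA arrays, 4851.8, 4545.1 and 7333.9 on SMA arrays and 6543.9, 6115.2 and 6506.9 on wild-type arrays. SMA 1 and SMA 2 were low and SMA 3 was the highest of all 9, so the groups overlapped, and SMA minus wild type was -0.23 (SE 0.18). Its promoter, printed above, is the 1 with the looser sterol element. Mvk, the kinase of mevalonate, spanned 158.4 to 246.1 in transplanted SMA, 57 to 168.1 in SMA and 107.5 to 275.7 in wild type, and the groups overlapped despite a difference of -0.68 (SE 0.38). Pmvk, the next kinase, read 153.8, 166.3 and 171.1 in transplanted SMA, 107.3, 145.7 and 193.3 in SMA and 214.7, 239.4 and 218.4 in wild type. Every array from an SMA animal, transplanted or not, lay below the wild-type arrays, and SMA minus wild type was -0.58 (SE 0.20, unadjusted p = 0.0149).

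Mvd, the decarboxylase that makes isopentenyl diphosphate, read 242, 281.6 and 436.5 in transplanted SMA, 241.3, 165.8 and 143.1 in SMA and 363.5, 375.1 and 231.1 in wild type. SMA 1 lay above wild type 3, and SMA minus wild type was -0.77 (SE 0.27). Idi1, the isomerase of that product, read 540.2, 682.8 and 730.4 in transplanted SMA, 590.7, 645.9 and 773.8 in SMA and 879.8, 915.7 and 902.8 in wild type. Its wild-type arrays lay close together and above all others, by a difference of -0.42 (SE 0.17) for SMA. Another bright probe set of Idi1 was at -0.55 (SE 0.47) and one of Mvd at -0.51 (SE 0.26), both with overlapping groups. Fdps, which makes farnesyl diphosphate, read 241.1, 236.8 and 273.6 in transplanted SMA, 182.3, 175.1 and 161.3 in SMA and 340.1, 323.2 and 252.9 in wild type. The SMA arrays were the 3 lowest of the 9, with a mean of 173 ± 10.7 against 305 ± 46.2 in wild type (SD, n = 3 each), and a log2 difference of -0.76 (SE 0.17, 95% interval -1.13 to -0.39, limma unadjusted p = 0.000931). Over these 6 genes before squalene the median difference was -0.63.

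The steps that make and close squalene lay on the same side. Fdft1, squalene synthase, read 499.4, 485.4 and 660.1 in transplanted SMA, 532.4, 512.8 and 540.8 in SMA and 710.1, 901.8 and 668.1 in wild type. All 6 arrays from SMA animals lay below wild type, and SMA minus wild type was -0.50 (SE 0.18). In another bright probe set of Fdft1 the groups overlapped, at -0.40 (SE 0.25). Sqle, squalene epoxidase and a rate-limiting step, read 550.7, 670.7 and 734.7 in transplanted SMA, 686.4, 582.1 and 441.6 in SMA and 836.2, 1039.8 and 863.8 in wild type. Again every array from an SMA animal was below every wild-type array, by -0.68 (SE 0.20, limma unadjusted p = 0.0054) for SMA. Lss, which closes the ring to lanosterol, read 742.5, 584.4 and 943.1 in transplanted SMA, 526.5, 419.1 and 470.6 in SMA and 883, 1172.1 and 576.6 in wild type. Its difference of -0.82 (SE 0.26, 95% interval -1.39 to -0.25) was the largest among the sterol enzymes, and the SMA array nearest to wild type was SMA 1, at 526.5 beside 576.6 on wild type 3. A second bright probe set of Lss was at -0.64 (SE 0.29) with overlap.

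The enzymes that turn lanosterol into cholesterol had differences of -0.60 to -0.40. Cyp51, the lanosterol demethylase, read 318.3, 285.3 and 300.5 in transplanted SMA, 252.8, 257.9 and 325.4 in SMA and 466.4, 381.5 and 404.7 in wild type. All arrays from SMA animals were below wild type, by -0.56 (SE 0.17) for SMA. Tm7sf2, a sterol reductase, read 579.2, 610 and 623.4 in transplanted SMA, 576.2, 335.6 and 313.2 in SMA and 676.4, 621.9 and 452.4 in wild type. SMA 1 stood apart from the other SMA arrays and overlapped wild type, so that the difference of -0.53 (SE 0.24) rested on SMA 2 and SMA 3. Nsdhl, a sterol dehydrogenase encoded on the X chromosome, read 708.7, 586.3 and 848.9 in transplanted SMA, 582.3, 532.3 and 553.7 in SMA and 888.1, 925.2 and 743.1 in wild type. The SMA arrays were the 3 lowest of the 9, by -0.60 (SE 0.17) from wild type.

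Hsd17b7, the ketosteroid reductase of the same complex, read 53.7, 79.1 and 91.4 in transplanted SMA, 64.8, 65.1 and 52 in SMA and 95.5, 146.3 and 66.9 in wild type. Wild type 3 was only just above the SMA arrays, the difference was -0.58 (SE 0.25), and another bright probe set of Hsd17b7 had 0.23. Sc5d, the desaturase that acts late in the path, read 73.2, 108.9 and 103.1 in transplanted SMA, 68.2, 79 and 95 in SMA and 122.8, 162.9 and 106.8 in wild type. SMA and wild type did not overlap, with SMA at -0.59 (SE 0.21) from wild type. Dhcr7, the last reductase of one branch, whose loss in people causes Smith-Lemli-Opitz syndrome, read 171.9, 231.1 and 176.3 in transplanted SMA, 159.9, 161.7 and 181 in SMA and 288.6, 316.4 and 184.3 in wild type. SMA 3 lay just below wild type 3 there, and SMA minus wild type was -0.57 (SE 0.21). Msmo1, a methylsterol oxidase, spanned 252.8 to 513.4 in SMA and 423.9 to 629.5 in wild type and overlapped, at -0.40 (SE 0.30). Ebp, the sterol isomerase and also X-linked, spanned 126.8 to 172.2 in SMA and 177.6 to 299.6 in wild type without overlap, at -0.48 (SE 0.23).

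Stard4, which carries cholesterol between membranes, read 107.5, 105.2 and 127.9 in transplanted SMA, 73.4, 51.3 and 81.5 in SMA and 154, 121.9 and 111.8 in wild type. The SMA arrays were the 3 lowest of the 9, and SMA minus wild type was -0.78 (SE 0.19, 95% interval -1.21 to -0.36, limma unadjusted p = 0.00195, adjusted p = 0.502).

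Among the regulators, Srebf1, which encodes SREBP-1, read 355.7, 343.3 and 307.2 in transplanted SMA, 388.7, 398.9 and 419.5 in SMA and 374.9, 301.3 and 257.1 in wild type. The SMA arrays were the 3 highest of the 9, with a difference of 0.37 (SE 0.17, limma unadjusted p = 0.0561) from wild type. Groups did not overlap in the higher direction for 5.31% of all probe sets. Srebf2, which encodes SREBP-2, read 148.4, 130.5 and 93 in transplanted SMA, 112.7, 53.8 and 91.9 in SMA and 82.3, 121.7 and 100 in wild type. Its groups overlapped, with -0.23 (SE 0.25) for SMA. Scap, the sterol sensor that escorts SREBPs to the Golgi, read 303.4, 294.5 and 261.6 in transplanted SMA, 405.1, 179.3 and 147.4 in SMA and 374.8, 253.1 and 244.3 in wild type. SMA 1 was the highest and SMA 3 the lowest of all 9 arrays, so that the SMA mean of 244 had an SD of 140.5. The arrays measure transcripts and not SREBP processing, which controls the activity of these factors.

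**Figure D2:**
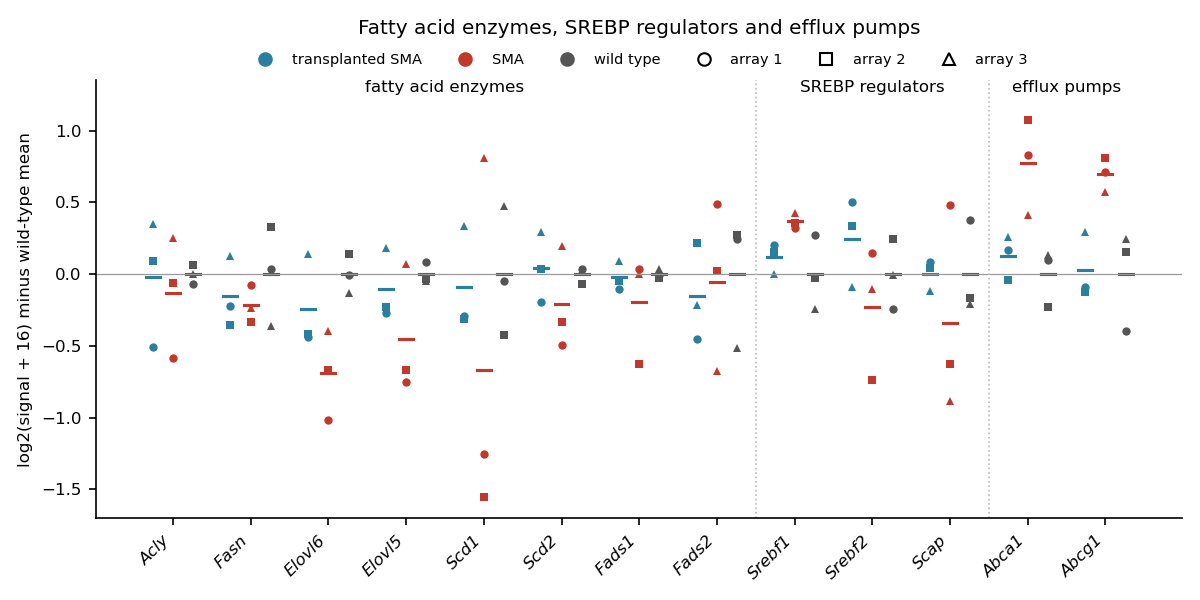
Each point is 1 array, as log2(signal + 16) minus the gene's wild-type mean (vertical axis), for the 8 tested fatty acid enzymes, 3 SREBP regulators and 2 efflux pumps (horizontal axis), with transplanted SMA, SMA and wild type left to right, array numbers as shapes and group means as short bars. Within Abca1 and within Abcg1 the SMA points lie above those of the other groups, around means of 0.77 and 0.70, and Scd1 has its SMA points far apart.

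On the probe sets used, the fatty acid enzymes lay closer to wild type. All 8 tested genes read lower in SMA, with a median difference of -0.21 (-0.69 to -0.05). By the probe sets used, only Elovl6 was at an unadjusted p under 0.05 and without overlap. Elovl6, which lengthens palmitate to stearate, read 750.9, 762.2 and 1127.5 in transplanted SMA, 498.5, 639.1 and 775.1 in SMA and 1021.6, 1127.6 and 931.5 in wild type. Its SMA arrays were all below wild type, at -0.69 (SE 0.21, limma unadjusted p = 0.00747). Fasn, the fatty acid synthase, read 522.9, 474.7 and 668.2 in transplanted SMA, 580.2, 482.7 and 516.4 in SMA and 628.3, 770 and 472 in wild type. Its groups overlapped, and the 95% interval of SMA minus wild type was -0.67 to 0.24 around -0.21. Scd2, a stearoyl-CoA desaturase of brain, read 4548.6, 5323.9 and 6365.9 in transplanted SMA, 3681.3, 4132.1 and 5973 in SMA and 5343.4, 4954.4 and 5318.8 in wild type. SMA 1 and SMA 2 were the lowest arrays and SMA 3 lay above wild type, as for Hmgcs1, and SMA minus wild type was -0.21 (SE 0.18).

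Scd1, the related desaturase, showed this split most widely. It read 829.5 and 673.3 on SMA 1 and SMA 2 but 3530 on SMA 3, against 1486.1 to 2788.5 in wild type, and the difference of -0.66 had an SE of 0.51. Elovl5, an elongase of polyunsaturated chains, spanned 1297 to 2305.8 in SMA and 2123.5 to 2333.6 in wild type, at -0.45 (SE 0.22). Acly, which supplies acetyl-CoA from citrate, was at -0.13 (SE 0.25), the desaturase Fads1 at -0.20 (SE 0.19) and Fads2 at -0.05 (SE 0.32), each with overlapping groups. Another bright probe set of Acly was at -0.40 (SE 0.16, limma unadjusted p = 0.0317) without overlap, and a further one at -0.16 with overlap. For the other genes, further bright probe sets were at -0.82 for Elovl6, -0.55 for Elovl5, -0.41 and -0.44 for Scd2, -0.21 for Fads2 and -0.05 for Scd1. Of these, only that of Elovl6 was without overlap.

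The pumps stood on the other side. Abca1, which loads cholesterol onto apolipoproteins, read 344.8, 295.5 and 367.2 in transplanted SMA, 555.3, 658.7 and 410 in SMA and 326.6, 257.2 and 336.4 in wild type. The SMA arrays were the 3 highest of the 9, with a mean of 541 ± 125 against 307 ± 43.2 in wild type (SD, n = 3 each) and a log2 difference of 0.77 (SE 0.20, limma unadjusted p = 0.00303, adjusted p = 0.534). Abcg1, which passes sterol to lipoprotein particles, read 112.6, 109.3 and 151.3 in transplanted SMA, 207.3, 223.1 and 186.8 in SMA and 87.6, 135.9 and 146.1 in wild type. SMA again held the 3 highest arrays, at 0.70 (SE 0.21, limma unadjusted p = 0.00675, adjusted p = 0.599). Higher differences at an unadjusted p under 0.05 made up 2.71% of all probe sets. Neither pump passed the test across all probe sets.

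Single arrays were then set against the wild-type mean of each gene. The median deviation of the 17 sterol enzymes was -0.37, -0.31 and -0.09 on transplanted SMA 1 to 3, -0.53, -0.61 and -0.60 on SMA 1 to 3, and 0.06, 0.24 and -0.25 on wild type 1 to 3. All 3 SMA arrays thus lay at a similar level, and wild type 3 was the lowest wild-type array. For the 8 fatty acid enzymes the medians were -0.28, -0.14 and 0.16 in transplanted SMA, -0.54, -0.48 and 0.03 in SMA, and 0.02, 0.02 and -0.02 in wild type. There SMA 3 was level with wild type, unlike SMA 1 and SMA 2. The difference between the sterol and the fatty acid enzymes was not tested.

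**Figure D3:**
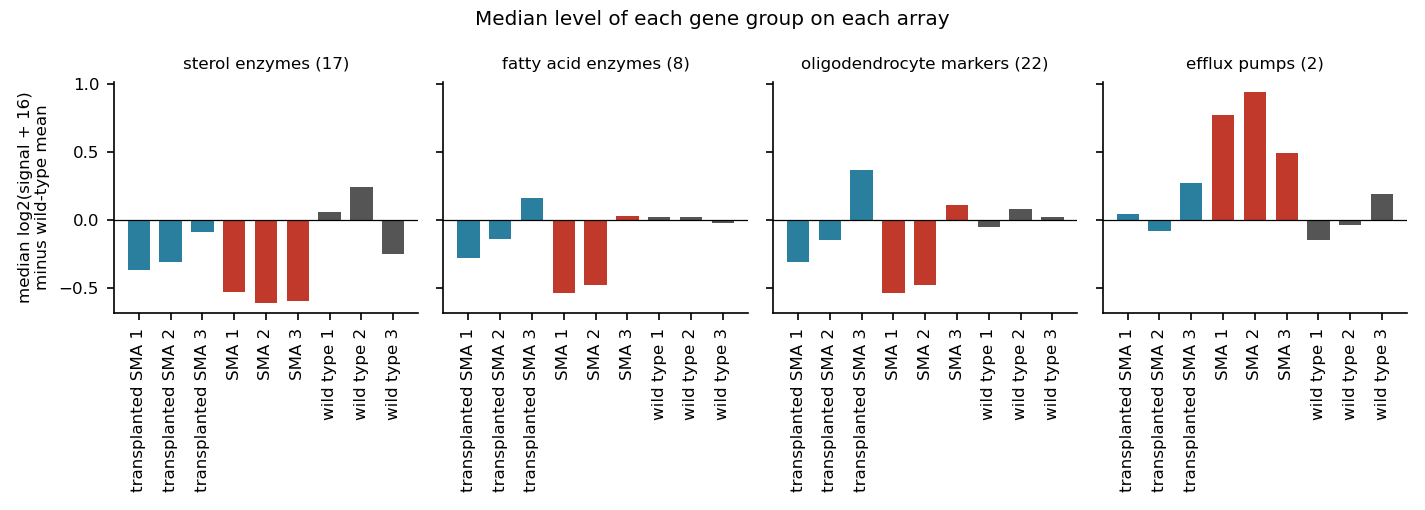
Bars give the median over genes of log2(signal + 16) minus the wild-type mean (vertical axis) on each of the 9 arrays (horizontal axis), in panels for sterol enzymes, fatty acid enzymes, oligodendrocyte markers and efflux pumps. Sterol enzymes lie at -0.61 to -0.53 on the SMA arrays, while fatty acid enzymes and oligodendrocyte markers are at 0.03 and 0.11 on SMA 3.

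Counts by array gave the same picture for the sterol enzymes. On SMA 1 to 3, 14, 15 and 15 of the 17 lay below every wild-type array (82.4%, 88.2% and 88.2%), against 28.9%, 27.6% and 31.5% of all probe sets. On transplanted SMA 1 to 3 there were 12, 9 and 7 of the 17 (70.6%, 52.9% and 41.2%), against 30.6%, 25.5% and 29.3% of all probe sets. The lowest of the 9 arrays was an SMA array for 15 of the 17 genes, SMA 1 for 5, SMA 2 for 3 and SMA 3 for 7. Wild type 2 was the highest array for 11 of them. Lowest and highest arrays were not counted over all probe sets. For the fatty acid enzymes, 5, 5 and 2 of the 8 were below every wild-type array on SMA 1 to 3.

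Oligodendrocyte markers were also low on SMA 1 and SMA 2. Of the 22, 21 read lower in SMA than in wild type, with a median of -0.40, and their medians by array were -0.31, -0.15 and 0.37 in transplanted SMA, -0.54, -0.48 and 0.11 in SMA and -0.05, 0.08 and 0.02 in wild type. Like the fatty acid enzymes, they were low on SMA 1 and SMA 2 and not on SMA 3, where the sterol enzymes stayed at -0.60. The 5 tested motor neuron markers had a median of -0.42 in SMA minus wild type, 3 of them lower. Microglial markers had a median of 0.17 (8 of 11 higher) and astrocyte markers 0.13 (7 of 13 higher). The part of the motor neuron, microglial and astrocyte markers in the result was not tested. With the mean oligodendrocyte marker level of each array as a covariate, the SMA minus wild type median was -0.49 for sterol enzymes. It was -0.06 for fatty acid enzymes, and Hmgcs1 was at 0.09 and Abca1 at 0.60. With Xist as a covariate the sterol median was -0.50 and the fatty acid median 0.15, and with the muscle transcripts they were -0.55 and -0.01. SMA 1 and SMA 2 carried the muscle transcripts and, among the SMA arrays, also high Xist and low oligodendrocyte markers. In these fits those traits cannot be told apart. Without SMA 1 and SMA 2, the sterol median was -0.60, the fatty acid median 0.03, Abca1 0.41 and Abcg1 0.57. The counts of sterol enzymes at an unadjusted p under 0.05 in these fits were 5, 4, 5 and 7.

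The second comparison set transplanted SMA against SMA, and it uses the same SMA arrays as the first. Sterol enzymes read higher in transplanted SMA for 16 of 17 genes, against 50.3% of all probe sets, with a median log2 difference of 0.23 (-0.04 to 0.74), beside 0.00 over all probe sets. None of the 31 genes passed, as for all 11313 probe sets (0%), and the smallest adjusted p was 0.933. At an unadjusted p under 0.05, 4 sterol enzymes were higher, Mvd, Fdps, Lss and Tm7sf2, against 2.32% of all probe sets. Groups did not overlap for 6, those 4 with Nsdhl and Ebp, against 4.43%.

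Mvd differed most, at 0.74 (SE 0.27), with every transplanted SMA array above every SMA array although 242 on transplanted SMA 1 was next to 241.3 on SMA 1. Lss was at 0.64 (SE 0.26) and Tm7sf2 at 0.60 (SE 0.24), and Fdps was at 0.50 (SE 0.17, 95% interval 0.12 to 0.87). A second bright probe set of Mvd was at 0.52 (SE 0.26) and one of Lss at 0.35 (SE 0.29), both with overlapping groups. Idi1, Fdft1 and Cyp51 were at -0.04, 0.04 and 0.11, with overlapping groups. Stard4 was at 0.63 (SE 0.19, limma unadjusted p = 0.00811), with the transplanted SMA arrays at 105.2 to 127.9 and the SMA arrays at 51.3 to 81.5. Of the other enzymes with values on all arrays above, Hmgcs1 was at 0.15 (SE 0.18), Sqle at 0.20 (SE 0.20) and Dhcr7 at 0.18 (SE 0.21).

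Fatty acid enzymes had a median of 0.22 in this comparison, and 0 of 8 were at an unadjusted p under 0.05. Elovl6 was the nearest, at 0.45 (SE 0.21, limma unadjusted p = 0.0559), with transplanted SMA 1 and transplanted SMA 2 below SMA 3. Abca1 was lower in transplanted SMA by -0.64 (SE 0.20, limma unadjusted p = 0.00915) and Abcg1 by -0.67 (SE 0.21, limma unadjusted p = 0.00846), both without overlap. In that direction 2.46% of all probe sets had such a p and 4.68% had no overlap. Srebf1 was at -0.25 (SE 0.17), also without overlap, Srebf2 at 0.48 (SE 0.25) and Scap at 0.34 (SE 0.31). Oligodendrocyte markers read higher in transplanted SMA for 19 of 22, with a median of 0.20, and their part in these differences was not tested. Motor neuron markers read higher in transplanted SMA for 4 of 5, with a median of 0.72, and microglial markers lower for 10 of 11, with a median of -0.74. The part of these markers was not tested. Without transplanted SMA 3 the sterol enzyme median was 0.21, the fatty acid median 0.13, Mvd 0.51, Fdps 0.43, Stard4 0.55, Abca1 -0.71 and Abcg1 -0.80.

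The third comparison set transplanted SMA against wild type. Again none of the 31 genes passed, as for all probe sets (0%), with a smallest adjusted p of 0.699. Of the 17 sterol enzymes, 14 read lower, against 51.5% of all probe sets, with a median of -0.26 (-0.48 to 0.07). Idi1, Fdft1, Sqle and Cyp51 were lower at an unadjusted p under 0.05, by -0.47, -0.46, -0.48 and -0.45 (SE 0.17 to 0.20), against 3.28% of all probe sets. With Pmvk, at -0.42, these were also the 5 without overlap, against 7.04%. Other bright probe sets of Idi1 and Fdft1 were at -0.18 (SE 0.47) and -0.12 (SE 0.25), both with overlap. For Cyp51 another was at -0.79 (SE 0.18) without overlap and a further one at -0.39 (SE 0.27) with overlap. Mvd, Tm7sf2, Ebp, Msmo1 and Mvk were at -0.03, 0.07, -0.01, 0.06 and 0.04, with 95% intervals as wide as -0.79 to 0.87, for Mvk. Fatty acid enzymes had a median of -0.10, Abca1 was at 0.13 (SE 0.20) and Abcg1 at 0.03 (SE 0.21), and the groups of the pumps overlapped. In the same comparison the median was 0.44 for motor neuron markers (3 of 5 higher), 0.15 for astrocyte markers (11 of 13 higher), -0.07 for oligodendrocyte markers (15 of 22 lower) and -0.37 for microglial markers (9 of 11 lower), and their part was not tested. Without transplanted SMA 3 the medians were -0.35 for sterol and -0.23 for fatty acid enzymes, Mvd was at -0.26, Abca1 at 0.06 and Abcg1 at -0.11.

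**Figure D4:**
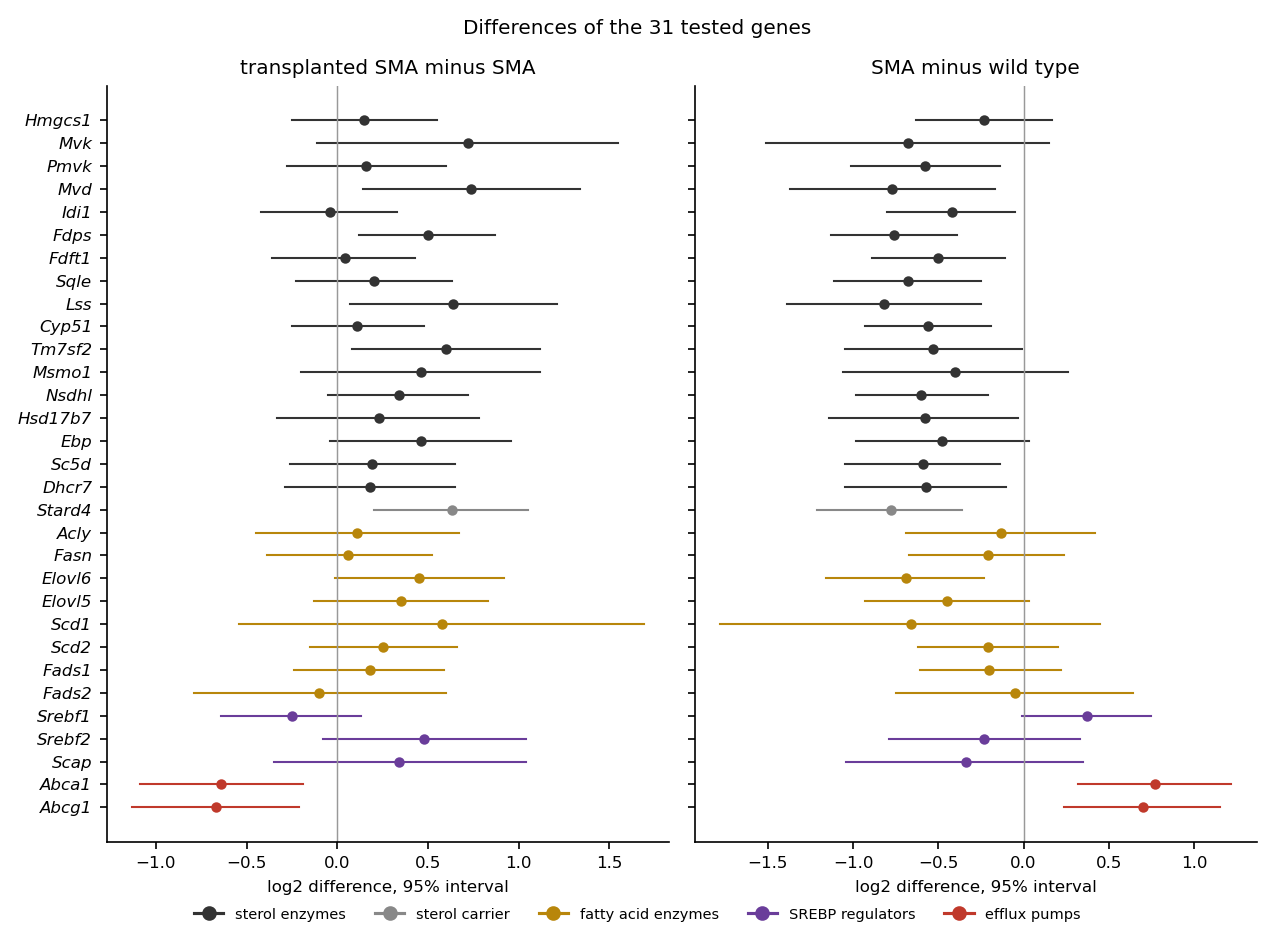
Points are log2 differences and lines their 95% intervals (horizontal axis) for the 31 tested genes (vertical axis), coloured by role, in transplanted SMA minus SMA (left panel) and SMA minus wild type (right panel). The 17 sterol enzymes lie below 0 on the right and 16 of them above 0 on the left, and the pumps lie at 0.77 and 0.70 on the right; both panels use the same SMA arrays.

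Other probe sets of the same genes were compared. Of 18 further probe sets bright enough to test, 17 had SMA minus wild type on the same side of 0 as the probe set used, Hsd17b7 being the exception. Of 12 dimmer ones, 6 did. Among the further bright ones of sterol enzymes, one of Hmgcs1 at -0.69 (SE 0.32) and those of Cyp51 at -0.60 and -0.84 were without overlap. The others overlapped. In transplanted SMA minus SMA the same side was seen for 12 of 18, and Hmgcs1, Idi1, Hsd17b7, Acly, Scd2 and Fads2 each had 1 on the other side. In transplanted SMA minus wild type it was 11 of 18, and those on the other side were of Hmgcs1, Mvd, Hsd17b7, Scd1, Scd2 and Fads2. A bright probe set of Scd2 was at -0.65 (SE 0.29, limma unadjusted p = 0.0488) without overlap, and another at -0.18 with overlap. The Scd2 probe set used was at 0.04.

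A wider list of 36 lipid genes was read beside the members, and 23 of them were tested. In SMA minus wild type 10 were lower and 13 higher, with a median of 0.08, and 3 were lower at an unadjusted p under 0.05, against 3.32% of all probe sets. Acss2, which makes acetyl-CoA from acetate, read 204.4, 241.3 and 247.6 in transplanted SMA, 161.2, 152.8 and 207.7 in SMA and 288.6, 295.4 and 253.1 in wild type. All SMA arrays were below wild type, at -0.64 (SE 0.17, limma unadjusted p = 0.00354). Me1, the malic enzyme that supplies NADPH, was at -0.81 (SE 0.28), and Mid1ip1, which aids acetyl-CoA carboxylase, at -0.49 (SE 0.20), both without overlap, as were 6.06% of all probe sets. Acss2 was at 0.39 (SE 0.17) in transplanted SMA minus SMA. Me1 was also lower in transplanted SMA than in wild type, by -0.65 (SE 0.28). A second bright probe set of Me1 was at -0.21 in SMA minus wild type, with overlap, and at 0.01 in transplanted SMA minus wild type. The 5 tested genes of LXR and efflux had a median of 0.16 in SMA minus wild type, all above 0, and Apoe, the main lipid carrier of the brain, was at 0.29 (SE 0.18) with overlapping groups.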

How the data were processed

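Gene expression was measured on 9 Affymetrix arrays, 1 animal each, after laser cutting of about 100 cells per cap from 16 µm sections, and RNA was amplified before labelling, per the labels' protocols. For each probe set the authors deposited a MAS5 signal, a linear intensity, per the submitters' processing notes, which give no version. The authors' scaling to a mean of 100 after trimming 2% at each end held on every array and was kept. Median signals were 31.4 to 35.8. Genes were named only from probe sets with 1 gene symbol in the platform annotation, 20380 of 22626 non-control probe sets, and 0 of 20364 looked-up symbols changed.

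Here 16 was added to each signal before log2. The brighter 50% of probe sets by mean over all arrays (11313, lowest mean 5.63) was fitted with limma 3.58.1 in R 4.3.3 (lmFit, eBayes with trend), with 1 mean per group, 6 residual and 4.93 prior degrees of freedom. All tests were two-sided, and p-values were adjusted by Benjamini-Hochberg over all 11313, with a threshold of 0.05. The fit was tested on simulated data. With 3 arrays per group their number limits the precision. Double amplification and the capture of neighbouring cells can affect the signals.

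The members, lists and tests were chosen with earlier results of these data known, so no p is given over a list. Values of all arrays are given for members at an unadjusted p under 0.05 in any comparison and for Hmgcs1, Srebf1, Srebf2, Scap, Fasn, Scd2, Abca1 and Abcg1; Insig1, also in that set, was not analysed here. Promoters are RefSeq windows of GRCm38.p6; the files name no build. Alternatives were other scalings, pseudocounts of 1 and 64, other brightness filters, array weights, only the 6 arrays compared, the sample number as a block, the mean of a gene's probe sets, covariates for oligodendrocyte, muscle and Xist transcripts, a threshold of 0.10, and leaving out arrays.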

Additional observations from a re-analysis of the deposited data

How the results depend on the processing

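In 26 alternative settings 0 of the 31 genes passed in any comparison, with a smallest adjusted p of 0.135 in SMA minus wild type, 0.223 in transplanted SMA minus SMA and 0.13 in transplanted SMA minus wild type. Of 802 single-gene values per comparison, 27, 45 and 73 had the other sign. The sterol enzyme median stayed below 0 in SMA minus wild type in all of them (-0.70 to -0.44). In that comparison the fatty acid enzyme median was -0.37 to -0.16 leaving out 1 array, and -0.39 to 0.15 in the other settings. All further values are of SMA minus wild type unless another comparison is named, and the cause was not tested. The count of fatty acid enzymes lower at an unadjusted p under 0.05 (1 as reported) was 2 with quantile normalisation, median centring, array weights or the replicate block. The main fit did not pair arrays by sample number. Deviations of same-numbered pairs correlated above 0.1 more often, in 6 of 9 (-0.08 to 0.45), against 4 of 18 other pairs (-0.47 to 0.33). The 3 pairs of arrays numbered 3 were at 0.45, 0.14 and 0.27, and the block left 0 genes called. With a gene's probe sets averaged, 8 sterol enzymes were at that p (13 as reported) and the median of the SREBP regulators was 0.10. With oligodendrocyte markers as a covariate, 5 sterol enzymes and 0 fatty acid enzymes were at that p and 5 of 8 fatty acid enzymes were below 0. With Xist as a covariate these counts were 4, 0 and 3, with a fatty acid median of 0.15, and of 0.50 in transplanted SMA minus wild type. With muscle transcripts they were 5, 0 and 5, and the fatty acid median in transplanted SMA minus SMA was -0.04. Leaving out SMA 1 and SMA 2, with the lone SMA array assumed to vary like the others, they were 7, 0 and 4, with fatty acid medians of 0.03 and, in transplanted SMA minus SMA, -0.09. Without the arrays numbered 3, 4 fatty acid enzymes were at that p, and the sterol median in transplanted SMA minus wild type was -0.48. Leaving out 1 array at a time gave 6 (without wild type 2) to 14 sterol enzymes at that p, with 8 without wild type 1, and 1 to 4 fatty acid enzymes (4 without SMA 3). The sterol median in transplanted SMA minus wild type was then -0.43 (without wild type 3) to -0.20, and the median of the SREBP regulators in transplanted SMA minus SMA was 0.07 to 0.67 (without SMA 1). The counts of enzymes below 0 and at an unadjusted p were added after seeing the data.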
